A study of Mus musculus with 2 samples.

Results

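The Ifi200 family DNA sensors described here are 6 mouse genes, Ifi203, Ifi204, Ifi207, Ifi209, Ifi211 and Mndal, taken by name from the 32285 genes of a single-cell RNA-seq series of mouse blood leukocytes. A further 7 genes of the same family were among the features and are given only for comparison. The series held 1 library from wild-type (WT) C57BL/6J mice and 1 from APP/PS1 transgenic mice, which carry mutant human amyloid precursor protein and presenilin 1 genes and are used as a model of amyloid deposition. Both libraries came from female animals of 7 months, with the blood of 3 mice pooled in each, from which neutrophils were enriched by negative selection. The promoter that drives the transgenes was not given in the sources used here. Because each genotype was a single pooled library, no difference between them could be tested, and each interval below is a 95% interval that covers counting error only, not the spread between mice. Amplification duplicates were collapsed by unique molecular identifiers (UMIs), so a UMI stands for 1 captured RNA molecule.

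Proteins of this family, also called PYHIN proteins or p200 proteins, typically join an N-terminal pyrin domain, which binds other pyrin domains, to 1 or more C-terminal HIN domains, which bind double-stranded DNA. Aim2, the best known member, assembles the inflammasome on cytosolic DNA, while Ifi204 (p204), often set beside human IFI16, has been linked to DNA sensing through STING and the induction of type I interferon. Several genes of the family are themselves induced by interferon. The other members are known less well. Ifi203 and Mndal encode mainly nuclear p200 proteins, Ifi209 and Ifi211 were each described as interferon-inducible, and Ifi207 encodes a p200 protein with a pyrin domain and a HIN domain.

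The 6 members lay together on chromosome 1 (mm10), within 311.756 kb from position 173630917 to 173942672. Ifi209 (ENSMUSG00000043263) lay on the plus strand at 173630917 to 173647928, and the other members on the minus strand. Ifi207 (ENSMUSG00000073490) ran from 173723427 to 173741747 and Ifi204 (ENSMUSG00000073489) from 173747293 to 173766943. Mndal (ENSMUSG00000090272) was annotated from 173849126 to 173942491, a span that held the whole of Ifi211 (ENSMUSG00000026536, 173896345 to 173913046) and most of Ifi203 (ENSMUSG00000039997, 173920407 to 173942672). Exons of Mndal and Ifi203 shared 37 bases. These spans are those of the GENCODE gene annotation. The RefSeq start windows of Mndal used below end at position 173880437 or lower. From those starts Mndal would hold neither Ifi211 nor Ifi203.

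**Figure D1:**
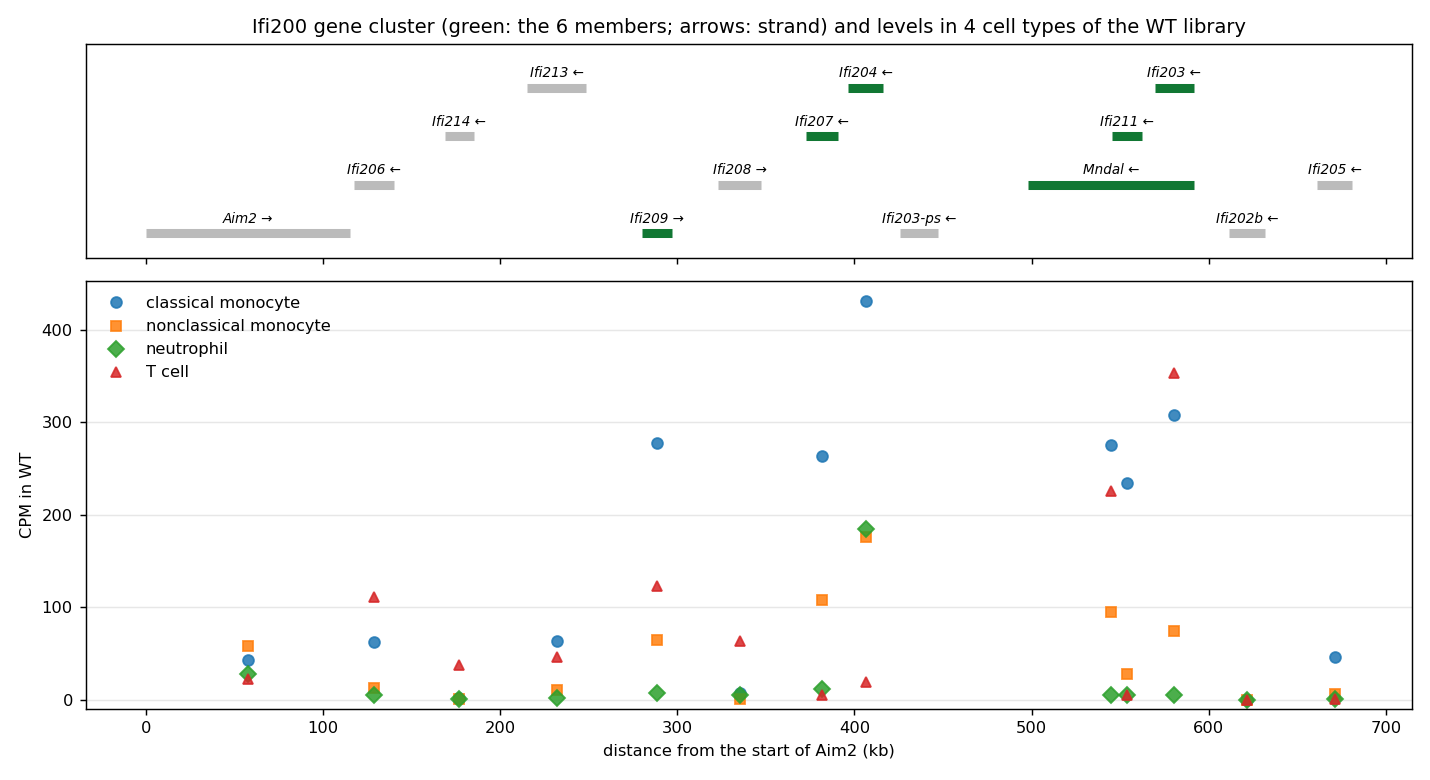
Upper panel, the Ifi200 gene cluster drawn to scale by distance (kb) from the start of Aim2, with the 6 members in green, other family genes in grey and arrows for the strand; lower panel, the WT level (CPM) of each gene in 4 cell types, at the middle of its span. In the GENCODE annotation drawn here, Mndal holds Ifi211 and most of Ifi203 within its span. Ifi204, at 431 CPM in classical monocytes, is the highest point.

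The genes are close copies of each other, which limits what 3′ counts can tell apart. Of the 50-base words in the last 400 bases of their transcripts, 85.2% of those of Ifi211 were also in a transcript of Ifi205, 40.2% of those of Ifi209 were in Ifi214, 12.7% of those of Mndal were in Ifi211, and 7.45% of those of Ifi203 were in the pseudogene Ifi203-ps. The largest share with a single other family gene was 2.97% for Ifi207 and 0.285% for Ifi204. Values of Ifi211 and Ifi209 are therefore the most uncertain of the 6, and those of Ifi204 the least.

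The start sites carried a shared sequence. The RefSeq promoter table of GRCm38.p6, the assembly named mm10, held 250 bases before and 50 after the start of 5 of the 6 members, with no entry for Ifi204. The letters AAANNGAAA, part of the core of the interferon-stimulated response element, were searched on both strands. They were found in a window of 5 of these 5 members and of 12.1% of all 27025 genes. By window they were in 3466 of all 32851 (10.6%). Mndal and Ifi203 each also had a window without a match on the strand of the gene. A G before the letters gives the full core of 10 letters and a subset of the same matches. This form was in 4 of the 5 members, the exception being Ifi209, and in 3.99% of all genes (1131 of all windows, 3.44%). Among the other family genes each form was found in 5 of 7. To show how alike the starts are, 83 bases around the 9-letter match are printed for the 5 members and for Ifi205, each 5′ to 3′ on the strand of its gene, with the match in capitals.

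Ifi209 (chr1:173630731-173630813, plus strand): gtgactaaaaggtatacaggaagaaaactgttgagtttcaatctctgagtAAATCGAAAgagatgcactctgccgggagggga
Ifi207 (chr1:173741817-173741899, minus strand): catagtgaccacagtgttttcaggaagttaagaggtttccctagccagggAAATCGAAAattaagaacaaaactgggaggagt
Ifi211 (chr1:173913050-173913132, minus strand): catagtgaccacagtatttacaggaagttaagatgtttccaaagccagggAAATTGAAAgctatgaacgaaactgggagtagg
Ifi205 (chr1:174031856-174031938, minus strand): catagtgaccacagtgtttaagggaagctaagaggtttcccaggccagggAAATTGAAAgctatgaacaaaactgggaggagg
Mndal (chr1:173880190-173880272, minus strand): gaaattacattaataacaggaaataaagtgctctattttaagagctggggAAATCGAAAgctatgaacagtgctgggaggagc
Ifi203 (chr1:173942494-173942576, minus strand): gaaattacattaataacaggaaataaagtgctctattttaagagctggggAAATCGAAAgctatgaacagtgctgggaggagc

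The stretches of Mndal and Ifi203 were identical over all 83 bases. Those of Ifi207, Ifi211 and Ifi205 formed a second group of like sequences, with 85.5% identity between Ifi207 and Ifi211, 86.7% between Ifi207 and Ifi205 and 89.2% between Ifi211 and Ifi205. Between these groups identity was lower, at 51.8% for Ifi207 and Mndal, and Ifi209 was 62.7% identical to Mndal. The match began 78 bases before the start site in Ifi209, 40 in Ifi207, 36 in Ifi211, 35 in Mndal and 34 in Ifi203. These matches describe the sequence and do not show that any factor binds there.

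After the cell filter, 14564 WT and 15208 APP/PS1 cells were kept, with a median of 3345 and 3115 UMIs over all deposited cells of each library. Cell type names were given to clusters from marker genes and mean that the cells are like that type. The classical monocyte cluster also had the dendritic cell genes Cd209a and Clec10a among its leading genes. Neutrophils were described as 5154 WT and 6002 APP/PS1 cells, and clusters led by platelet genes (2417 and 3579 cells) were kept apart as neutrophils with platelet transcripts. There were 83 barcodes in both libraries, carried by 72 WT and 73 APP/PS1 kept cells.

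Levels of the members are given as CPM, the gene's summed UMIs divided by all UMIs of the cells of that type, scaled to a total of 1e6. As 3′ counts give 1 UMI per molecule whatever its length, CPM can be set side by side between genes, although the capture of each transcript may differ. The 6 genes followed 3 patterns over 8 cell types. Ifi204 was high in monocytes and neutrophils alike, Ifi207 and Ifi211 were highest in monocytes and near the bottom of the range in lymphocytes, and Ifi209, Mndal and Ifi203 were high in both classical monocytes and lymphocytes and very low in neutrophils.

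Classical monocytes held the most Ifi204, 431 CPM (8832 UMIs) in the WT library and 452 CPM (6092 UMIs) in the APP/PS1 library. In the same order of libraries it stood at 176 and 172 CPM in nonclassical monocytes, at 185 and 212 CPM in neutrophils, and at 127 and 134 CPM in neutrophils with platelet transcripts. It was lower in the other types, at 58.6 and 62.7 CPM in erythroid cells, 37.6 and 8.75 CPM in B cells, 22.2 and 29.8 CPM in NK cells and 19.1 and 15.4 CPM in T cells. The order was thus the same at the top in both libraries, with classical monocytes first. The intervals of neutrophils and nonclassical monocytes overlapped in WT but not in APP/PS1, where neutrophils were 1.23-fold higher (1.15 to 1.32).

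Ifi207 was measured at 263 and 271 CPM in classical monocytes, 107.6 and 112.4 CPM in nonclassical monocytes and 11.5 and 13.1 CPM in neutrophils of WT and APP/PS1. In T cells it was at 5.20 and 2.89 CPM and in NK cells at 1.798 and 2.077 CPM, on 9 UMIs or fewer in each. Ifi211 had the steepest step between the monocytes, with 234 and 274 CPM in classical and 28.2 and 36.3 CPM in nonclassical monocytes, a fold of 8.31 (7.40 to 9.36) among WT cells and 7.55 (6.62 to 8.66) among APP/PS1 cells. Below nonclassical monocytes, Ifi211 was at 8.48 CPM or less in each of the 6 other types, and neighbours in that lower part of its order had overlapping intervals.

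Ifi203 reached 308 and 402 CPM in classical monocytes of WT and APP/PS1, 354 and 341 CPM in T cells, 327 and 322 CPM in B cells and 253 and 218 CPM in NK cells. Mndal was at 275 and 329 CPM in classical monocytes, 285 and 288 CPM in B cells, 226 and 248 CPM in T cells and 158 and 188 CPM in NK cells. Ifi209 was at 278 and 307 CPM in classical monocytes, 139.3 and 107.7 CPM in B cells, 123 and 125 CPM in T cells and 95.3 and 103 CPM in NK cells. All 3 genes were lower in nonclassical monocytes than in each lymphocyte type, at 73.9 and 69.1 CPM for Ifi203, 94.4 and 88.8 CPM for Mndal and 64.9 and 76.8 CPM for Ifi209.

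By CPM, the type that came first for Ifi203 and Mndal differed between the libraries. Classical monocytes stood at 0.872 times the T cell level of Ifi203 in WT (0.802 to 0.949), but at 1.18 times in APP/PS1 (1.09 to 1.28). For Mndal they stood at 0.965 times the B cell level in WT (0.878 to 1.06), but at 1.14 times in APP/PS1 (1.04 to 1.25). The WT interval of Mndal held 1, so B cells and classical monocytes did not differ there beyond counting error. By CPM, 4 of the 6 members were highest in classical monocytes in WT, and in APP/PS1 all 6 were.

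**Figure D2:**
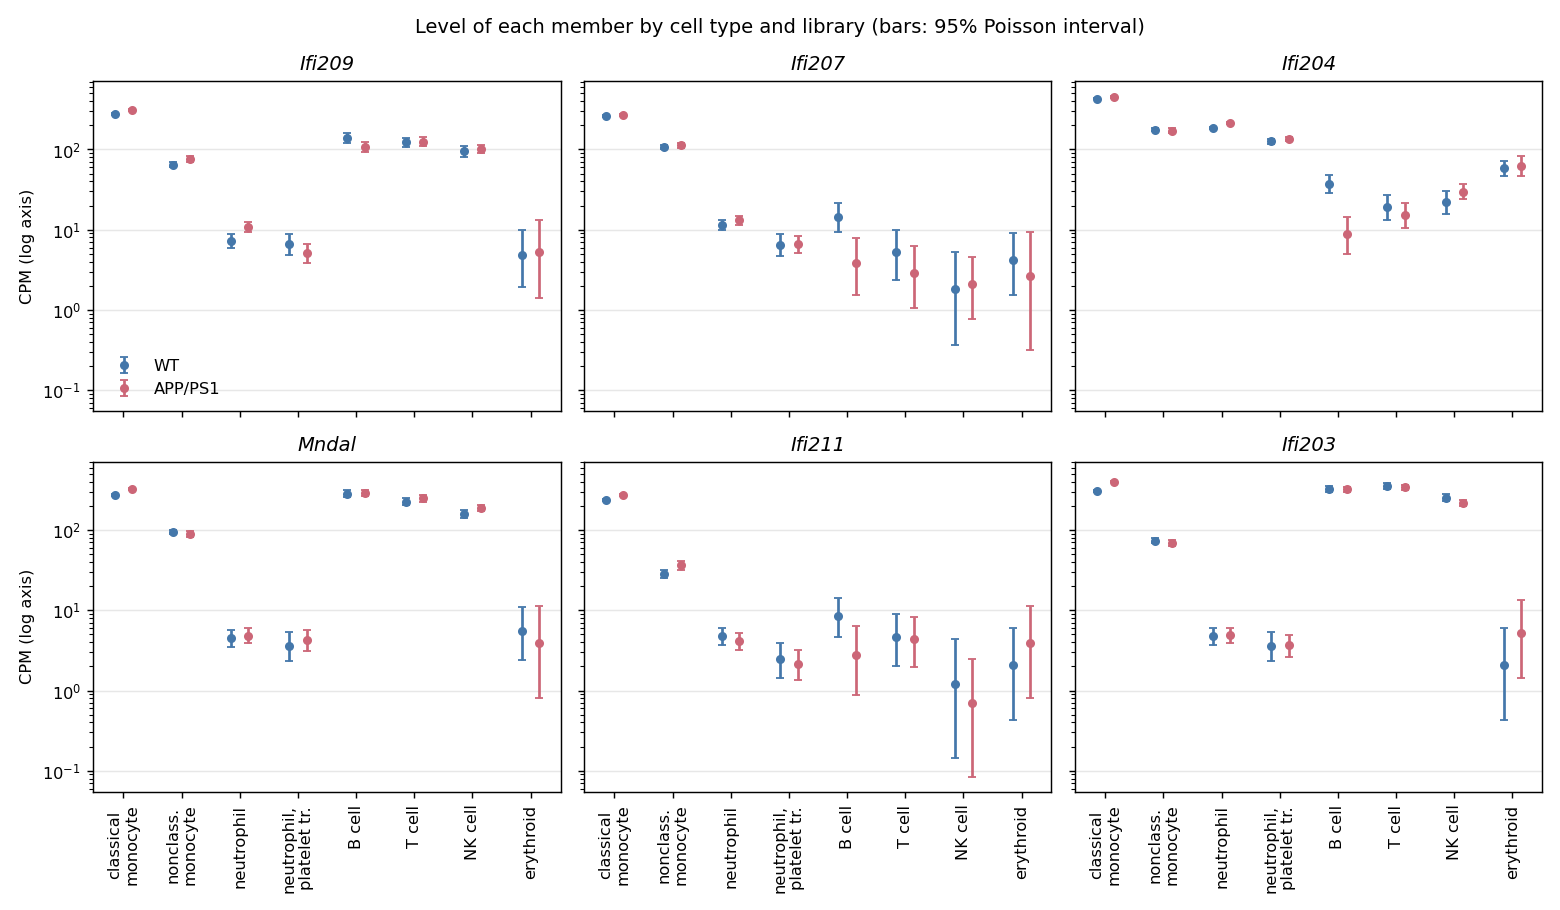
Level of each member (CPM, log axis) in 8 cell types of the WT and APP/PS1 libraries, with points for the summed level and bars for the exact Poisson 95% interval. Ifi204 is the only one of the 6 above 100 CPM in neutrophils, and Ifi203, Mndal and Ifi209 sit high in B, T and NK cells.

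Neutrophils carried little of any member except Ifi204. WT and APP/PS1 neutrophils held 4.72 and 4.89 CPM of Ifi203, 4.52 and 4.84 CPM of Mndal, 4.72 and 4.12 CPM of Ifi211, and 7.28 and 10.9 CPM of Ifi209. Classical monocytes exceeded neutrophils for Ifi203 by 65.3-fold (51.6 to 83.9) and 82.3-fold (66.7 to 103) in the WT and APP/PS1 libraries, but for Ifi204 by 2.33-fold (2.24 to 2.44) and 2.13-fold (2.05 to 2.22). Of the UMIs of the 6 members in neutrophils (3225 and 4545), Ifi204 made up 84.9% in both libraries, with intervals of 83.6 to 86.1 for WT and 83.8 to 85.9 for APP/PS1. In classical monocytes it made up 24.1% and 22.2%, and Ifi203 17.2% and 19.8%. T cells had another make-up, with 48.3% and 46.2% from Ifi203 and 30.9% and 33.7% from Mndal.

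The share of cells with at least 1 UMI was compared after thinning each cell to 1000 UMIs, since classical monocytes held more UMIs a cell than neutrophils (median 8243.5 and 7738 UMIs in classical monocytes against 2537 and 2635.5 in neutrophils). Ifi204 was then found in 33.4% of WT and 33.0% of APP/PS1 classical monocytes, 15.2% and 14.5% of nonclassical monocytes, and 14.2% (13.2 to 15.2) and 15.9% (15.02 to 16.88) of neutrophils. Without thinning these shares were 88.0% and 84.6%, 47.1% and 47.6%, and 29.8% and 31.8%. Erythroid cells were assumed to lack the gene. They had a UMI of it in 4.78% (2.32 to 8.62) and 8.93% (4.36 to 15.8) after thinning, from a median of 7053 and 7123.5 UMIs a cell, and in 21.1% and 27.7% without it. After thinning, the share of neutrophils was above that of erythroid cells in WT, while in APP/PS1 the intervals overlapped. By level, neutrophils held 3.15-fold (2.54 to 3.96) the Ifi204 of erythroid cells in WT and 3.38-fold (2.55 to 4.60) in APP/PS1. However, 6 erythroid markers took 692706 and 597604 CPM of the erythroid cells, which lowers the CPM and thinned share of every other gene there. Neither comparison was corrected for this, so neither shows that neutrophils lie above background. Called doublets made up 79 of 209 WT and 58 of 112 APP/PS1 erythroid cells, and without them Ifi204 was at 43.8 and 39.4 CPM. Thinned B cells had a UMI of Ifi204 in 2.63% and 0.651%, T cells in 1.30% and 1.37%, and NK cells in 2.12% and 1.44%.

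Neutrophil markers were also read in the types where Ifi204 was low. In erythroid cells the summed level of 8 neutrophil markers was 23.5% of that in neutrophils in WT and 32.3% in APP/PS1, and the level of Ifi204 was 31.7% and 29.6% of its neutrophil level. The neutrophil markers of T cells stood at 8.01% and 9.43% and Ifi204 at 10.3% and 7.28% of the neutrophil level, and in NK cells at 10.2% and 11.1% beside 12.01% and 14.04%. B cells had 6.83% and 4.09% of the neutrophil markers beside 20.3% and 4.13% of Ifi204. From WT to APP/PS1 both percents were higher in NK cells and lower in B cells, while in erythroid and T cells that of the markers was higher and that of Ifi204 lower. The neutrophil levels beneath them also differed, with markers at 187837 and 159343 CPM and Ifi204 at 185 and 212 CPM. In CPM, Ifi204 was at 58.6 and 62.7 in erythroid cells, and the markers at 15045 and 15022 in T cells and 19215 and 17766 in NK cells, so these did not move as their percents did. The part of neutrophil RNA in these values was not tested. The other 5 members were found in 0.350% to 1.20% of thinned neutrophils. In erythroid cells they were found in 0.957% at most, and a count of 0 there allows up to 1.75% in WT and 3.24% in APP/PS1, so that these shares in neutrophils were not distinguishable from background at this depth. By CPM, Ifi207 was 2.79-fold (1.25 to 7.70) the erythroid level in WT cells and 5.01-fold (1.37 to 41.6) in APP/PS1 cells, on 6 and 2 erythroid UMIs. The intervals of the other 4 members held a fold of 1. These erythroid levels, too, are lowered by the erythroid markers, so the folds do not show Ifi207 above background. The levels of these 5 members in neutrophils were 1.22% to 4.82% of those in classical monocytes. The summed level of 7 classical monocyte markers in neutrophils was 8.25% of the monocyte level in WT cells and 7.74% in APP/PS1 cells. These markers include Chil3, which is also a leading gene of a neutrophil cluster led by Camp. The sum can therefore hold RNA of the neutrophils themselves. The part of monocyte RNA in the levels of the members was not tested.

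Single classical monocytes often carried several members at once. UMIs of all 6 were found in 37.5% of WT and 38.0% of APP/PS1 classical monocytes, and of 3 or more in 91.7% and 89.96%. Nonclassical monocytes had 3 or more members in 25.5% and 27.0% of cells, B cells in 33.9% and 32.9%, T cells in 20.2% and 20.5%, and NK cells in 12% and 11.4%. Neutrophils mostly had none (66.4% and 64.7%) or 1 (29.8% and 30.5%), and 3 or more in 0.582% and 0.700%. After thinning to 1000 UMIs, 3 or more members were found in 19.5% and 23.3% of classical monocytes, 1.30% and 1.0% of nonclassical monocytes and 0.0776% and 0.20% of neutrophils.

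**Figure D3:**
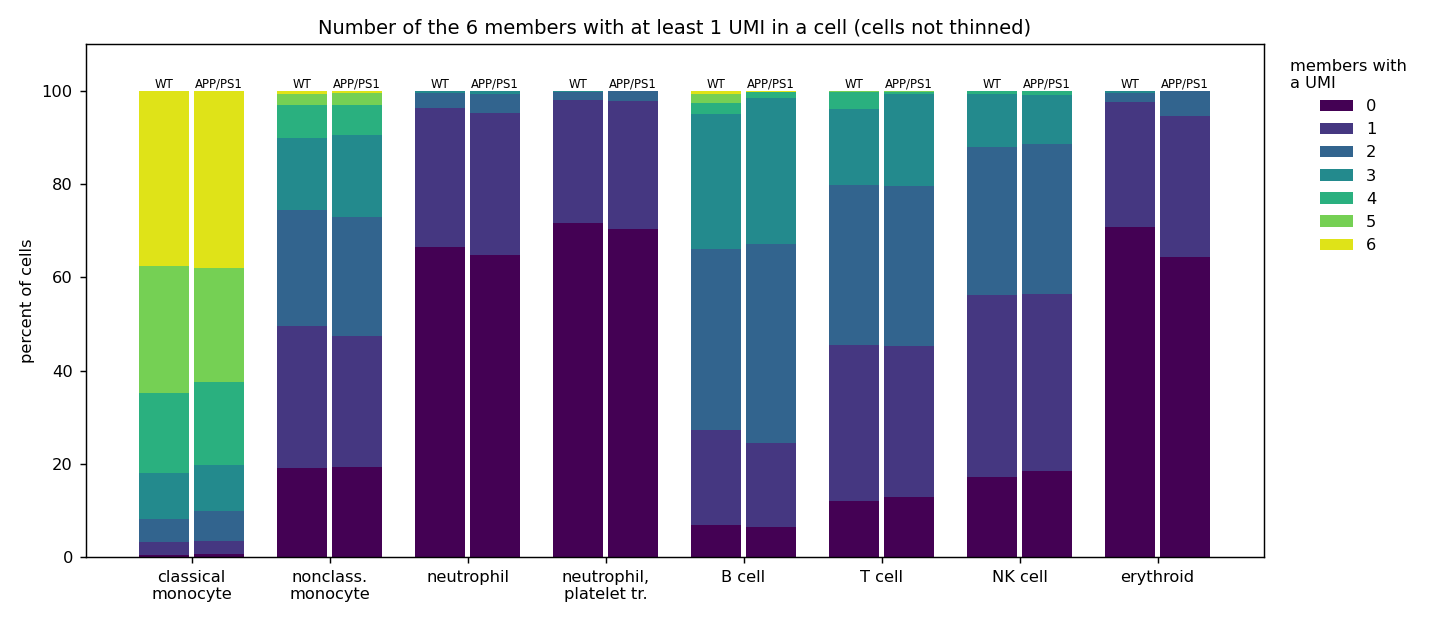
Percent of cells by the number of the 6 members with at least 1 UMI, for each cell type and library, in cells that were not thinned. Classical monocytes are mostly at 3 or more members and neutrophils mostly at 0 or 1.

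The patterns of the members over the types were set beside those of 5181 other genes by the Pearson correlation of log2(CPM + 1) over 16 points, 8 types in each of 2 libraries, so that points of a type share its markers and points of a library its depth. Most like Ifi204 were Ifitm3 (r = 0.98), an interferon-induced membrane protein that restricts viruses, Klra2 (0.97) and Abcd2 (0.97). Ifi207 was nearest to Pid1 (0.97), Ptpro (0.97) and Psap (0.97), the last encoding the lysosomal prosaposin. Aif1 (0.95), a macrophage protein, Tifab (0.94) and Idh1 (0.94) were nearest to Ifi211. Mndal lay nearest to Hspe1, Eif3i and Ptpa (each 0.99), Ifi203 to Dmac1, Noc2l and Eef1d (each 0.99), and Ifi209 to Rpl36al, Osgep and Ndufc2 (each 0.98). Among the members themselves r was 0.99 between Mndal and Ifi203, 0.98 between Ifi209 and each of these, and 0.95 between Ifi207 and Ifi211. Ifi204 stood at 0.78 with Ifi207, 0.68 with Ifi211, -0.31 with Mndal and -0.34 with Ifi203.

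The comparison of genotypes asked which neutrophil genes differ in the blood of mice with amyloid pathology. In neutrophils, Ifi204 was slightly higher in APP/PS1 than in WT, at 212 against 185 CPM, a log2 ratio of 0.20 (0.13 to 0.27). Ifi209 was at 10.9 against 7.28 CPM, with intervals of 9.42 to 12.5 and 5.97 to 8.79 CPM and a log2 ratio of 0.58 (0.23 to 0.93). The intervals of the other 4 members held 0, with log2 ratios of 0.18 (-0.11 to 0.47) for Ifi207, 0.10 (-0.38 to 0.58) for Mndal, 0.05 (-0.42 to 0.52) for Ifi203 and -0.19 (-0.68 to 0.30) for Ifi211. Thus 2 of 6 members were higher with an interval above 0, as were 24.8% of the 7507 genes with at least 100 UMIs over both libraries. Past a difference of 0.5 on the log2 scale lay 1 of 6 members on the higher side and 0 on the lower, beside 5.10% (higher) and 3.20% (lower) of these genes. All 6 members reached that number in neutrophils and in both monocyte types. The median log2 ratio was 0.14 over the members and 0.06 over all genes.

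These values depended on which neutrophils were pooled. With the clusters with platelet transcripts added (7571 and 9581 cells), the log2 ratio of Ifi204 was 0.13 (0.07 to 0.19) and that of Ifi209 was 0.29 (-0.0043 to 0.59). With all cells clustered at a resolution of 0.2 in place of 0.5, the ratio of Ifi209 turned to -0.24 and that of Ifi204 was 0.0016. At that setting the cluster with platelet transcripts had the interferon-induced genes Ifit3b, Ifit3 and Ifit1 among its leading genes. Of the cells in the interferon-led cluster found among neutrophils, it held 36.3% of 579 in WT and 60.3% of 896 in APP/PS1, and the rest were among the neutrophils.

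In classical monocytes, where each member was counted on 3656 UMIs or more in a library, 5 of the 6 members were higher in APP/PS1 with an interval above 0, beside 11.5% of 9364 genes. Over both libraries the members had 8499 to 14924 UMIs, while these genes had at least 100. More UMIs give a narrower interval, so the shares are not like for like. Ifi203 was at 402 (392 to 413) against 308 (300.7 to 316) CPM, a log2 ratio of 0.38 (0.33 to 0.44). Mndal was at 329 (319 to 339) against 275 (268 to 283) CPM, a log2 ratio of 0.26 (0.20 to 0.31), and Ifi211 at 274 (266 to 283) against 234 (228 to 241) CPM, a log2 ratio of 0.23 (0.17 to 0.29). Ifi209 had a log2 ratio of 0.14 (0.08 to 0.20) and Ifi204 of 0.07 (0.02 to 0.12), while that of Ifi207 was 0.04 (-0.02 to 0.10). None of the 6 passed 0.5, beside 2.19% (higher) and 2.96% (lower) of the genes, and the median was 0.18 over the members and -0.03 over all genes.

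Nonclassical monocytes did not share this order. Ifi211 was at 36.3 against 28.2 CPM (log2 ratio 0.37, 0.11 to 0.62) and Ifi209 at 76.8 against 64.9 CPM (0.24, 0.08 to 0.41), whereas the intervals of the other 4 members held 0, with -0.10 (-0.27 to 0.07) for Ifi203 and -0.09 (-0.24 to 0.06) for Mndal. Thus 2 of 6 were higher with an interval above 0, beside 10.7% of 8230 genes. Again 0 of 6 members passed 0.5, beside 2.0% (higher) and 3.32% (lower) of the genes. The median was 0.02 over the members and -0.01 over all genes. Whether the 2 monocyte types differ in these ratios was not tested.

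**Figure D4:**
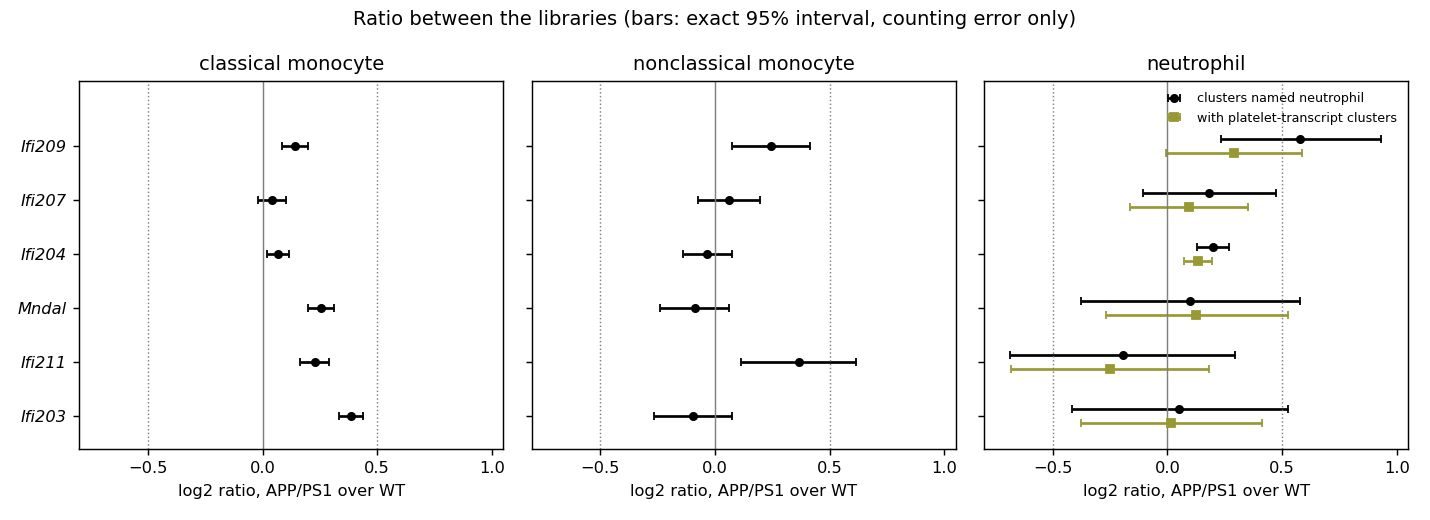
The log2 ratio of APP/PS1 to WT (x axis) for each member in neutrophils, classical monocytes and nonclassical monocytes, with points for the ratio, bars for its exact 95% interval, a line at 0 and dotted lines at 0.5 on either side; squares in the neutrophil panel include the clusters with platelet transcripts. Ifi203, Mndal and Ifi211 lie to the right of 0 in classical monocytes, and the widest bars are those of the low members in neutrophils.

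Of the 6 members, 3 had at least 100 UMIs in B cells and in T cells, and 4 in NK cells. T cells had log2 ratios of -0.05 for Ifi203, 0.13 for Mndal and 0.03 for Ifi209. NK cells had -0.21 (-0.39 to -0.03) for Ifi203 and 0.25 (0.04 to 0.47) for Mndal, and with called doublets removed -0.16 (-0.35 to 0.03) and 0.27 (0.04 to 0.50). B cells had -0.03 for Ifi203, 0.01 for Mndal and -0.37 (-0.65 to -0.09) for Ifi209, the last also with doublets removed (-0.37, -0.67 to -0.07).

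In B cells Ifi204 was at 37.6 and 8.75 CPM in the WT and APP/PS1 libraries, on 62 and 16 UMIs, a log2 ratio of -2.10 (-2.99 to -1.29), and Ifi207 was at 14.5 and 3.83 CPM on 24 and 7 UMIs, a log2 ratio of -1.93 (-3.38 to -0.67). Marker lists of other cells did not all move the same way in these B cells. Summed NK cell markers rose from 6.66 to 109 CPM between the WT and APP/PS1 libraries. Dendritic cell markers were slightly higher (11844, then 12208 CPM) and nonclassical monocyte markers slightly lower (834, then 786 CPM). The dendritic cell sum rests on few genes, since only 3 of the 8 had over 3 UMIs in each library. Xcr1 and Zbtb46 were at 0 in both libraries, and Cd209a and Clec10a also in APP/PS1. Larger falls were seen in the lists given next, and the cause of the lower Ifi204 and Ifi207 was not tested. The summed level of 7 classical monocyte markers was 273 CPM in the WT and 113 CPM in the APP/PS1 library, where Vcan was at 0, that of 8 neutrophil markers 12834 and 6512 CPM, and that of 6 erythroid markers 13029 and 3344 CPM. With the 35 WT and 17 APP/PS1 cells called doublets removed, 7 and 5 UMIs of Ifi204 were left in 269 and 290 B cells, with a log2 ratio of -0.80 (-2.80 to 1.07), and 4 and 5 UMIs of Ifi207, at 2.97 and 2.98 CPM.

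Among neutrophils, Ifi204 was highest in a cluster led by interferon-induced genes. Neutrophils were clustered again after the libraries were aligned, without the family genes and without genes over 0.5 log2 apart between libraries, which gave 6 clusters. Cluster 3, led by Ifit2, Ifit1bl1 and Ifit3, held 579 WT and 896 APP/PS1 cells, 7.65% and 9.35% of all neutrophils. Ifi204 stood at 573 and 579 CPM there, 4.20-fold and 4.005-fold the level of all other neutrophils, and above its level in classical monocytes. Among the other clusters it was at 152 and 155 CPM in cluster 0 (led by Clec4n), 111 and 130 CPM in cluster 1 (led by Stfa2), 160 and 162 CPM in cluster 2 (led by platelet genes) and 144 and 161 CPM in cluster 5 (led by mitochondrial genes).

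The other members were at lower levels, and 4 of these 5 were higher in the interferon-led cluster than in all other neutrophils in both libraries. With Ifi204 that made 5 of 6 members with an interval above 0 in both, beside 3.83% of 8303 genes with at least 100 UMIs in neutrophils. Clusters 4 and 5 held 59 UMIs or fewer of each member, so that their order with cluster 3 is uncertain for the members other than Ifi204. In it Ifi207 was at 40.5 and 37.9 CPM, 5.26-fold and 4.74-fold the other neutrophils, Ifi209 at 23.6 and 37.1 CPM (4.02-fold and 6.24-fold), Ifi211 at 14.8 and 17.2 CPM (4.63-fold and 8.41-fold) and Mndal at 14.2 and 10.9 CPM (4.04-fold and 2.73-fold). Ifi203 was 1.79-fold the other neutrophils in WT, with an interval that held 0 on the log2 scale (-0.22 to 1.75), and 2.38-fold in APP/PS1. A UMI of Ifi204 was found in 58.2% and 62.8% of the cluster's cells, and in 35.9% and 37.6% after thinning, against 22.5% and 24.7%, and 10.0% and 10.9% after thinning, in cluster 1. Since the clusters were made from the same cells, these values describe the cluster and test nothing.

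Within the interferon-led cluster Ifi204 had a log2 ratio of APP/PS1 to WT of 0.01 (-0.11 to 0.14), in cluster 0 of 0.03, in cluster 2 of 0.02 and in cluster 1 of 0.23 (0.10 to 0.36). Cluster 4, led by the granule genes Camp, Ltf and Ngp of immature neutrophils, went the other way, with 99.99 CPM on 59 UMIs in WT and 36.6 CPM on 41 UMIs in APP/PS1, a log2 ratio of -1.45 (-2.06 to -0.85) from 90 and 165 cells. The shares of its cells with a UMI of Ifi204 had overlapping intervals, 26.7% (17.9 to 37.0) and 17.0% (11.6 to 23.6). The differences in clusters 1 and 4 depended on the clustering. In the cluster led by Camp the log2 ratio was -0.88 (-1.40 to -0.35) when the libraries were not aligned and -0.46 (-0.91 to -0.0098) with all variable features kept, and in the cluster led by Stfa2 it was 0.16 (0.04 to 0.29) and 0.01 (-0.11 to 0.14). Among the neutrophils without the platelet-gene clusters, 10.7% of WT and 14.3% of APP/PS1 cells were in the interferon-led cluster. With both libraries weighted to the same mix of clusters, the log2 ratio of Ifi204 was 0.05 and that of Ifi209 was 0.36. Clusters were formed with the 2 libraries aligned, so their shares also depend on that step.

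**Figure D5:**
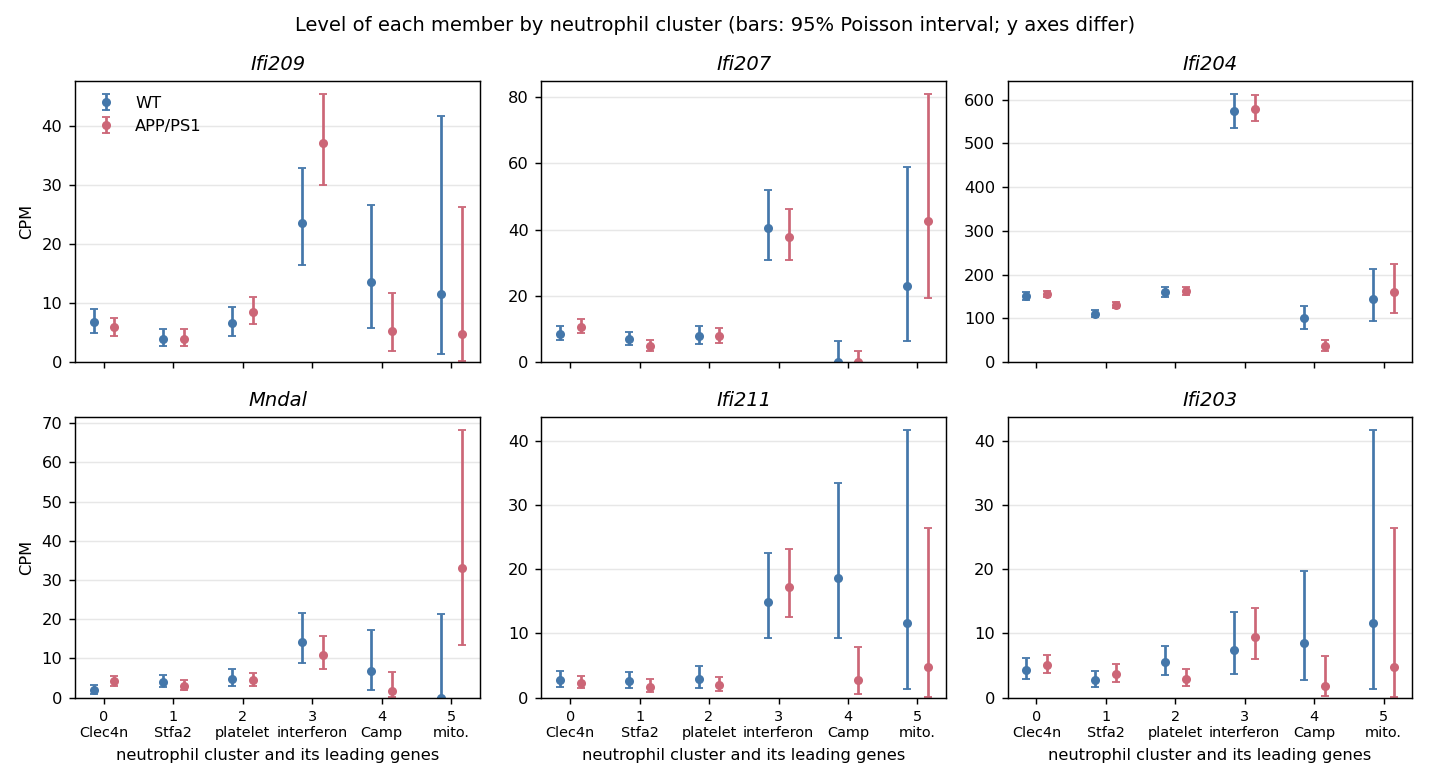
Level of each member (CPM, a separate y axis for each member) in the 6 neutrophil clusters of the WT and APP/PS1 libraries, with exact Poisson 95% intervals. Ifi204 reaches 573 and 579 CPM in the interferon-led cluster 3 and lies between 36.6 and 162 CPM in the others.

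Of the 7 other family genes in the features, Ifi205 stood apart between the libraries in monocytes. In classical monocytes it was at 45.7 CPM (WT) and 80.1 CPM (APP/PS1) (log2 ratio 0.81, 0.68 to 0.94) and at 6.05 and 16.3 CPM in nonclassical monocytes (1.43, 0.97 to 1.90). Ifi205 is the gene whose 3′ end shares the most sequence with Ifi211. In neutrophils Ifi208 was at 4.92 and 9.02 CPM (0.87, 0.47 to 1.29) and Ifi206 at 5.06 and 7.15 CPM (0.50, 0.08 to 0.93). Aim2 differed by less than its counting interval in neutrophils, at 27.6 and 26.1 CPM (-0.08, -0.28 to 0.11), and was the highest of these 7 in that type. Ifi202b had no UMI in any type described.

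Genes that act with the family were taken from fixed lists. Of all genes with at least 100 UMIs in neutrophils, 5.10% lay past 0.5 on the higher side and 3.20% on the lower. Their median log2 ratio was 0.06. Of 15 genes of cytosolic nucleic acid sensing among the features, 11 had at least 100 UMIs in neutrophils. Of these 11, 1 lay past 0.5 on the higher side and 0 on the lower, with a median log2 ratio of 0.21. These were led by Cgas, the DNA sensor that makes the STING ligand, at 4.11 and 5.88 CPM (0.52), the transcription factor Irf7 at 136 and 181 CPM (0.42) and the RNA sensor Ifih1 at 48.2 and 63.8 CPM (0.40). At the low end were the inflammasome adaptor Pycard (-0.19), the kinase Tbk1 (-0.14) and the transcription factor Irf3 (-0.07). Tmem173, which encodes STING, had 47 and 34 UMIs in neutrophils, too few for the count, and was at 56.6 and 45.7 CPM in classical monocytes (-0.31).

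All 15 genes of interferon receptors and signalling were counted in neutrophils. On the lower side 0 lay past 0.5, beside 3.20% of all genes, and the median was 0.16. Usp18, which dampens signalling at the type I interferon receptor, was at 29.2 and 46.0 CPM (0.65), and Ifngr2, a chain of the interferon gamma receptor, was at 117 and 161 CPM (0.46). Lowest were the other chain Ifngr1 at 182 and 147 CPM (-0.30), Irf8 (-0.20) and Ifnar2 (-0.01). Of 36 interferon-induced effectors, 31 were counted, all 31 lay above 0, 11 passed 0.5 and the median was 0.39, against 0.06 over all genes. The median over all genes was thus also above 0, and 5.10% of all genes lay past 0.5 on the higher side. Ifit3b was at 72.6 and 139 CPM (0.94), Ifit3 at 124 and 223 CPM (0.84) and the GTPase gene Ifi47 at 18.7 and 31.9 CPM (0.77), while Oas1a (0.02), Oas3 (0.06) and Oas2 (0.10) had the smallest ratios. For these neutrophil lists, too, the share of cells in the interferon-led cluster differed between the libraries, and its part in their medians was not tested.

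In classical monocytes the same lists were closer to 0, with medians of -0.02 for nucleic acid sensing (14 genes), 0.03 for receptors and signalling (15 genes) and 0.21 for effectors (33 genes, 4 past 0.5 on the higher side), against -0.03 over all genes. Of all genes there, 2.19% lay past 0.5 on the higher side. Among the effectors Ifit3b was at 10.2 and 19.1 CPM (0.91), Ifit3 at 40.6 and 72.9 CPM (0.84) and Ifit2 at 27.6 and 45.9 CPM (0.73).

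Genes next to the family on chromosome 1 were hardly read in these cells. Of the 5 on the side of Aim2, Olfr418 and Mptx2 had no UMI in the kept cells of either library, Ackr1 had 37 (WT) and 28 (APP/PS1), and Cadm3 had 149 and 101. Fcer1a, a chain of the IgE receptor, had 210 and 173 UMIs, of which 199 and 172 were in basophils. On the other side Olfr433 had 14 and 12 UMIs, Olfr432 had 5 and 1, and Olfr430, Olfr429 and Olfr427 had none.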

How the data were processed

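Blood leukocytes of WT and APP/PS1 mice were measured in 1 droplet 3′ library each. The authors deposited filtered matrices of raw UMI counts (whole numbers, genes by cells), produced by Cell Ranger 5.0.0 and the mm10 reference of its supplier. WT held 17123 cells and 92458623 UMIs, APP/PS1 17645 cells and 84870864 UMIs.

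As in the study, cells outside percentiles 5 and 95 of genes or UMIs in their library, or over 10% mitochondrial, were left out, as were genes in under 3 cells. Cells were clustered with Seurat 5.3.0 (2000 variable features without the family genes, 15 components, resolution 0.5). Clusters were named from marker lists, by a rule (at least 3 markers) set after the clusters were seen; unnamed clusters and types under 50 cells in a library were not compared. UMIs were summed by type and library. Intervals were exact (Poisson for levels, conditional binomial for ratios, Clopper-Pearson for shares). No test was possible with 1 library per genotype. Genes past 0.5 log2 were counted among those with at least 100 UMIs, as were, by a choice made after the data were seen, genes whose ratio interval lay above 0. A gene with more UMIs has a narrower interval, and the latter shares were not matched for the UMIs of the members.

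Scrublet in scanpy 1.11.5 called 9.04% of WT cells doublets at its automatic threshold of 0.217. For APP/PS1 its automatic threshold of 0.728 called 0 cells, so the WT threshold was used for both (7.29%). Doublets were kept except where stated.

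Named genes were the 6 members, the other family genes, the 3 highest and 3 lowest ratios of each list in neutrophils, the 3 genes most like each member (mean of at least 20 CPM) and 5 neighbours on each side. A result that this rule names is not reported here. Genes singled out in monocytes were chosen after their values were seen. The members and lists were chosen with earlier results of these data known. Gene positions came from GENCODE M21 on GRCm38. On counts simulated with Poisson error, 95.4% of ratio intervals over the 7507 neutrophil genes held the true ratio. This is the error that the intervals assume, so the share checks the calculation only and not the spread in real cells. Alternatives covered the cell filter, doublets, library size (edgeR 4.0.16 TMM), cell weights, depth and clustering.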

Additional observations from a re-analysis of the deposited data

How the results depend on the processing

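Of the ratios in neutrophils, 63 values under the alternatives moved by less than the counting interval, 6 moved by more and 1 reversed. The reversed value was Ifi209, at -0.24 with a clustering resolution of 0.2, against 0.58. The log2 ratio of the summed 6 members in neutrophils was 0.20. It was -0.022 at a resolution of 0.2, 0.049 with both libraries weighted to the same mix of neutrophil clusters, and 0.13 with all neutrophil clusters together, an alternative added after the data were seen. In classical monocytes the summed ratio was 0.19, and it was 0.16 with percentile limits over both libraries, 0.16 with doublets removed and 0.22 with edgeR TMM library sizes; 49 of the values there stayed within the interval and 7 did not. The cause of these shifts was not tested. Without a minimum of summed UMIs, genes past 0.5 were 15.4% (higher) and 11.8% (lower) in neutrophils, 12.9% and 9.62% in classical monocytes and 12.9% and 10.4% in nonclassical monocytes. With the minimum kept, the genes past 1 log2 unit were, in the same order, 0.400% and 0.440%, 0.214% and 0.406%, and 0.158% and 0.365%. In the interferon-led cluster, 11 values stayed within the interval without integration or with all variable features kept, and the log2 ratio of Ifi207 to other neutrophils in APP/PS1 was 2.63 against 2.25 with all features. No replicate could be left out. No paired analysis was possible because each genotype was a single library.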

Other observations

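Small or unnamed groups of cells were not compared. Plasma cells, 39 in WT and 64 in APP/PS1, held 7 and 35 UMIs of Mndal (69.2 and 261 CPM). The 16 platelets of each library held no UMI of any of the 6 members, which allows up to 144 and 147 CPM by the exact Poisson interval. Basophils (73 and 43 cells) held Ifi204 at 55.2 and 23.0 CPM and Mndal at 26.3 and 55.2 CPM. An unnamed group of 695 and 598 cells led by epithelial genes held Ifi204 at 180 and 190 CPM and Ifi207 at 77.1 and 73.7 CPM. This group also had S100a9 at 33900 CPM and 7 of 8 markers of a leukocyte list raised by over 1 log2. Its levels are therefore not those of epithelial cells alone.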
